A study of Mus musculus with 12 samples.

Results

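Melanophages sorted from mouse skin were compared by surface MHC class II (MHC-II): 3 arrays of MHC-II-positive cells were set against 3 arrays of MHC-II-negative cells, 6 of the 12 arrays of the study, across 19938 genes. The arrays were chosen by the cell type label alone. All cells came from untreated wild-type C57BL/6 mice kept specific-pathogen-free (SPF), and the labels of the melanophage groups differ only in the MHC-II gate. Both melanophage groups were sorted as SSC-A(high), that is, with a high side scatter of light, and as CD11b(pos) and CD64(pos), which marks macrophages. They were also CD24(neg), CCR2(neg) and Ly6c(neg), which leaves out cells with those monocyte and dendritic cell proteins on the surface. The remaining 6 arrays hold skin macrophages of the same MHC-II classes, for which the labels disagree on side scatter. They entered the fit only through the estimate of the spread, except where the same difference in macrophages is given beside that in melanophages. The choice of probe set per gene and the level taken as near background also drew on all 12 arrays. No source used here gives the age or sex of the mice, or says whether the arrays of a group come from separate animals or from pools. The p-values therefore cover the spread among these arrays, and this spread may be technical.

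Melanophages are macrophages of the dermis that have taken up melanin, and they hold the pigment in their lysosomes. MHC-II molecules are pairs of an alpha and a beta chain that display peptides to CD4 T cells. The invariant chain CD74 guides them to the endosome, where the DM molecule loads the peptide. In the dermis, macrophages without surface MHC-II are often long-lived residents, while many with it derive from blood monocytes.

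Values are log2 expression, so a difference of 1 is 2-fold. A gene was called where the Benjamini-Hochberg adjusted p over all genes was under 0.05 in limma's moderated test, which is the adjusted p given throughout. Differences are MHC-II-positive minus MHC-II-negative with the standard error (SE) of the fit, and group means carry the standard deviation (SD, n = 3). A mean below 3.58, which is the highest array median plus 0.5, was taken as near background, and a difference with such a mean on its lower side is a lower bound. The mean correlation of a melanophage array with its group mates was between 0.982 and 0.988. On the leading principal component of these 6 arrays, with 32.1% of the variance, the negative arrays lay between -21.5 and -11.8 and the positive ones between 16.0 and 18.8.

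The label held up against macrophage genes. Of 21 core macrophage genes, 19 were above background in at least 1 melanophage group and 0 were called between the classes. The macrophage receptor genes Adgre1 (9.18 ± 0.18 in negative and 9.20 ± 0.28 in positive cells) and Csf1r (9.45 ± 0.38 and 9.35 ± 0.19) were clearly expressed in both. Pigment synthesis genes were not a feature of either class. Of 25 genes of melanosomes and pigment, 19 lay near background in both groups, among them the melanin enzymes Tyr (2.29 ± 0.11 and 2.30 ± 0.15), Tyrp1 (3.00 ± 0.14 and 2.83 ± 0.05) and Dct (2.60 ± 0.07 and 2.65 ± 0.05), and 0 of the 25 were called.

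In all, 42 genes differed between the classes, 0.211% of those tested. The calls were nearly all rises: 40 genes were higher in MHC-II-positive melanophages (0.201% of genes) and 2 were lower (0.01%). At least 2-fold rises made up 38 of the 40, and 21 rose at least 4-fold. The 3 positive and 3 negative arrays did not overlap for any of the 42. The calls were made on these same arrays, so this is a description and no separate support. Of all genes, 5.12% were without overlap in the higher direction and 7.13% in the lower. Before adjustment, 1136 genes (5.7%) had p under 0.05, 533 of them higher and 603 lower. The lower values of 12 calls were near background, and their differences are lower bounds.

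**Figure D1:**
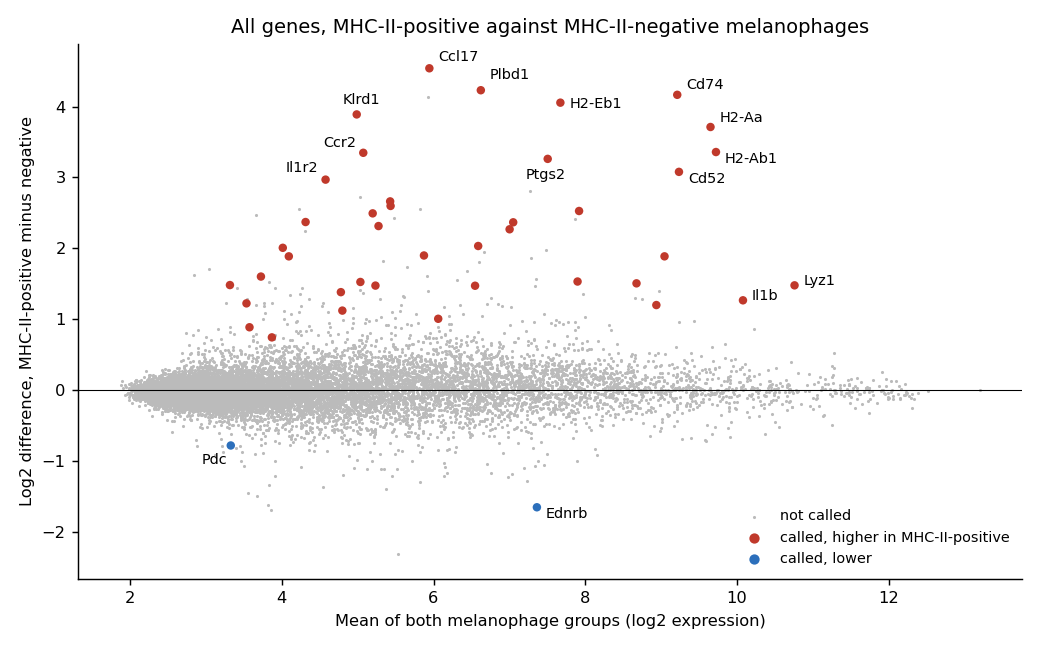
Log2 difference (MHC-II-positive minus MHC-II-negative melanophages, vertical axis) against the mean log2 expression of both groups (horizontal axis) for 19938 genes. Grey points were not called; of the 42 coloured points, 40 lie above 0 (red) and 2, Ednrb and Pdc, below it (blue).

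Genes of the MHC-II molecules rose strongly. This is fixed by the gate, so it checks the sort and is no separate finding. The sequences just before the start sites of H2-Aa, which encodes an alpha chain, and of H2-Eb1, which encodes a beta chain, are shown because these promoters carry the Y box, the element at which MHC-II genes are switched on together with other boxes. Each line gives bases -120 to -21 before the RefSeq start site in assembly GRCm38.p6, read 5′ to 3′ along the gene, and capitals mark CCAAT or, on the other strand, ATTGG.
H2-Aa, chr17:34287844-34287943, minus strand: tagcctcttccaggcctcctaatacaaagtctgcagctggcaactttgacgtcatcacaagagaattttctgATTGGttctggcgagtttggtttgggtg
H2-Eb1, chr17:34305747-34305846, plus strand: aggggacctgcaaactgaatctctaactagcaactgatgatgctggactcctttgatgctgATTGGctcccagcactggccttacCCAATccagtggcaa
The H2-Aa window holds 1 match, starting at -48, and the H2-Eb1 window holds 2, starting at -59 and -35. Whether a given match is the Y box was not tested. A match in this window is found in 19.2% of the 32851 mouse promoters of the table. Both start sites listed for H2-DMa, which encodes the alpha chain of the peptide loader, hold 0 matches there. In the full 250 bases before the start site, the first of them holds 0 matches and the second 1. A match in those 250 bases is found in 33.8% of the promoters.

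H2-Eb1 read 5.66, 5.52 and 5.75 in the MHC-II-negative arrays and 9.20, 9.93 and 9.96 in the positive ones. The gap is wide beside the spread in either group, and the gene rose 16.6-fold (4.05 ± 0.26 SE, adjusted p = 0.000154). Cd74, the invariant chain, read 6.84, 7.81 and 6.74 against 11.15, 11.40 and 11.34, a rise of 17.9-fold (4.17 ± 0.41, adjusted p = 0.00165). H2-Aa rose 13.1-fold (3.71 ± 0.34, adjusted p = 0.00105), H2-Ab1, the partner beta chain of H2-Aa, 10.3-fold (3.36 ± 0.30, adjusted p = 0.00105), and H2-DMa 4.82-fold (2.27 ± 0.31, adjusted p = 0.0143). MHC-II-negative cells still had H2-Ab1 at 8.04 ± 0.74 and H2-Aa at 7.80 ± 0.78, well above background, and these 2 genes varied more among the negative arrays than among the positive ones (SD 0.16 and 0.17). Of 14 measured genes of MHC-II presentation, those 5 rose, 0 fell and 9 did not pass. The lysosomal protease gene Ctss, which trims the invariant chain, differed by 0.07 ± 0.16, and the thiol reductase gene Ifi30 by 0.26 ± 0.14. The master regulator Ciita lay near background in both groups (2.66 ± 0.07 and 2.77 ± 0.17), as did H2-Oa and H2-Ob, the DM inhibitors. None of the 11 measured genes of MHC class I presentation was called, and their median difference was 0.03, close to the median of all genes (-0.02). B2m, the class I light chain, differed by -0.12 ± 0.13.

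Of the sort markers other than MHC-II, only Ccr2 was called, and all lay above 0 at the RNA level. Ccr2, the receptor by which monocytes leave the bone marrow and whose protein was absent by the gate, read 3.72, 3.38 and 3.10 in negative arrays and 7.20, 6.56 and 6.49 in positive arrays. It thus passed from near background to a clear signal, a rise of at least 10.2-fold (3.35 ± 0.28, adjusted p = 0.000857). No call was made for Itgam, the gene of CD11b (0.72 ± 0.25, adjusted p = 0.647), for Cd24a, near background in negative cells (1.22 ± 0.45, adjusted p = 0.721), or for Fcgr1, the gene of CD64 (0.34 ± 0.22, adjusted p = 0.954). With Ccr2, the 3 MHC-II genes of the gate were called, 4 of 7 measured.

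Among chemokines, Ccl17, Ccl22 and Ccl6 rose. Ccl17, which attracts T cells that carry CCR4, had the largest difference of all called genes. It read 3.72, 3.91 and 3.40 in MHC-II-negative melanophages and 8.10, 7.92 and 8.62 in positive ones, a 23.3-fold rise (4.54 ± 0.56, adjusted p = 0.00909). Ccl22, a ligand of the same receptor, rose at least 4.02-fold from background (2.01 ± 0.20, adjusted p = 0.00156), with 3.11, 3.10 and 2.81 in negative and 4.90, 5.50 and 4.65 in positive arrays. Ccl6, a chemokine of the myeloid lineage, was well expressed in both classes and rose 2.30-fold (1.20 ± 0.17, adjusted p = 0.0179). Of 18 CC chemokine genes these 3 rose, 0 fell and 15 did not pass, and the list's median difference was 0.02. The monocyte attractants Ccl2 (12.26 ± 0.23 in negative and 12.21 ± 0.13 in positive cells) and Ccl7 (12.23 ± 0.21 and 12.17 ± 0.11) were among the highest signals and did not differ beyond their spread. Ccl8 (-0.33 ± 0.21) and Ccl12 (-0.62 ± 0.24, adjusted p = 0.747) lay below 0 without a call. Ccl5, an attractant of T cells, differed by 1.56 ± 0.56 (adjusted p = 0.693), with arrays that varied from 6.37 to 8.06 in the positive group.

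None of the 16 CXC chemokine genes was called, although 6 had an unadjusted p under 0.05, all higher in positive cells. Of all 19938 genes, 533 were higher and 603 lower at that p. The list's median was 0.25. The interferon-induced Cxcl9 differed by 2.41 ± 0.84 (adjusted p = 0.662), and its readings within a class spread over more than 2 units: 5.76, 8.26 and 5.97 in negative and 8.38, 10.42 and 8.41 in positive arrays. Replicate 2 of each class is the high one, and the groups do not overlap. Cxcl13, which attracts B cells, went from 6.50 ± 0.46 to 8.48 ± 0.11 (1.98 ± 0.57, adjusted p = 0.449).

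Among 22 measured chemokine receptor genes, Ccr2 and Ccrl2 rose, 0 fell and 20 did not pass; 15 were near background in both classes. Ccrl2, an atypical receptor that presents the attractant chemerin, read 7.22, 7.05 and 7.13 against 8.92, 8.48 and 8.59, a 2.89-fold rise (1.53 ± 0.12, adjusted p = 0.000742). Ccr7, the receptor that leads dendritic cells to lymph nodes, differed by 1.82 ± 0.38 (adjusted p = 0.158) and Ccr1, a receptor of inflammatory CC chemokines, by 2.43 ± 0.43 (adjusted p = 0.0783). Both lay higher in all 3 positive arrays. Cx3cr1, the fractalkine receptor, read 4.26 ± 0.12 and 4.26 ± 0.18.

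Ptgs2, Il1b and Il1r2 were the called genes of inflammatory mediators and their receptors. Ptgs2, the inducible enzyme of prostaglandin synthesis, read 6.00, 5.44 and 6.18 in MHC-II-negative and 9.06, 9.14 and 9.20 in positive melanophages, a 9.59-fold rise (3.26 ± 0.28, adjusted p = 0.000857). The SD of the positive arrays was 0.07. It was the only call among 17 measured genes of prostaglandin and leukotriene synthesis, whose median was -0.01, and the next enzyme of the path, Ptges, stayed near background (2.74 ± 0.11 and 2.84 ± 0.08). Il1b, the secreted cytokine interleukin-1 beta, was high in both classes and rose 2.41-fold (1.27 ± 0.16, adjusted p = 0.00909), from 9.28, 9.53 and 9.52 to 10.45, 10.93 and 10.76. Il1r2, the decoy receptor that binds interleukin-1 without signalling, read 3.23, 3.49 and 2.56 against 4.72, 6.58 and 6.89. Its positive replicate 1 was far below replicates 2 and 3, and the call was close to the threshold (2.97 ± 0.49, at least 7.83-fold, adjusted p = 0.048). Of 18 measured interleukin-1 and inflammasome genes these 2 rose, 0 fell and 16 did not pass. The inflammasome sensor Nlrp3 missed the threshold narrowly (1.04 ± 0.18, adjusted p = 0.0609), and Il1rn, the soluble antagonist, differed by 0.42 ± 0.14 (adjusted p = 0.619).

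None of 29 other cytokine and growth factor genes was called. Il6 went from 4.69, 7.05 and 5.84 to 8.09, 8.90 and 9.02 (2.81 ± 0.57, adjusted p = 0.137), without overlap but with a wide spread in negative cells. The immunosuppressive cytokine Il10 differed by 1.30 ± 0.28 (adjusted p = 0.166), and Tnf by 0.22 ± 0.27. Of the regulators around NF-kB, the transcription factor of inflammatory genes, Traf1, an adaptor of TNF receptors, rose from background (0.89 ± 0.12, at least 1.85-fold, adjusted p = 0.012). It was the only call of 21 measured members. Of the 21 differences 20 lay above 0, and their median was 0.30, against -0.02 for all genes. Tnip3, an inhibitor of NF-kB signalling outside that list, rose 5.76-fold (2.53 ± 0.26, adjusted p = 0.00205), from 6.97, 6.99 and 6.01 to 9.22, 9.35 and 8.97. Malt1, a protease of the signalling complex of lectin and antigen receptors, rose 2.88-fold (1.53 ± 0.21, adjusted p = 0.0145).

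**Figure D2:**
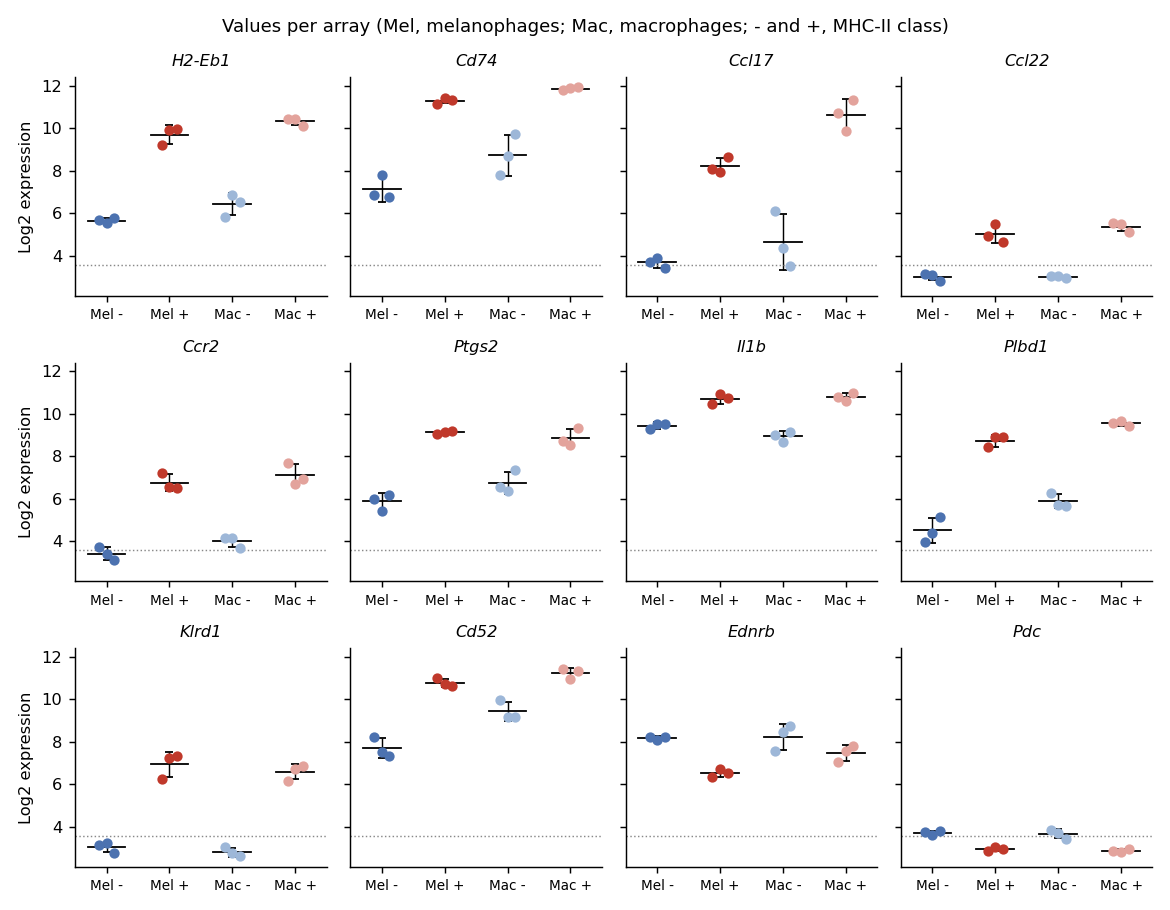
Log2 expression (vertical axis, shared by all panels) of 12 genes on each array, with the mean (bar) and SD (whiskers) of 3 arrays per group and the level taken as near background (3.58, dotted). In both melanophage columns the points do not overlap for any of the 12 genes, with 10 genes higher and Ednrb and Pdc lower in MHC-II-positive cells.

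Receptors of the C-type lectin fold were among the rises, though several of these calls were lost when single melanophage arrays were left out. Of 24 measured members of the list 4 rose, 0 fell and 20 did not pass. Arrays did not overlap for 10 members in the higher direction and 0 in the lower. Over all genes these shares were 5.12% and 7.13%. The list's median was 0.30, against -0.02 for all genes. Olr1, a scavenger receptor of oxidised lipoprotein, went from 4.13 ± 0.74 to 6.73 ± 0.45, a 6.06-fold rise (2.60 ± 0.33, adjusted p = 0.0113). Clec4b1, a lectin of the Dectin-2 cluster, rose 5.16-fold (2.37 ± 0.34, adjusted p = 0.0179), and Clec7a, the beta-glucan receptor Dectin-1, 4.97-fold (2.31 ± 0.35, adjusted p = 0.0287). Clec4e (Mincle), a sensor of microbial glycolipids and dead cells, rose 3.70-fold to one of the higher levels of the family (8.10 ± 0.46 to 9.99 ± 0.09, 1.89 ± 0.26, adjusted p = 0.0143). Cd209e, a C-type lectin outside the list that is a relative of DC-SIGN with near copies in the genome, rose 2.78-fold (1.48 ± 0.20, adjusted p = 0.0157). The inhibitory receptor Clec12a did not pass (1.68 ± 0.30, adjusted p = 0.0831).

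Several genes better known from lymphoid cells were among the calls. Klrd1 (CD94), a subunit of natural killer cell receptors, read 3.13, 3.23 and 2.77 in negative and 6.24, 7.25 and 7.31 in positive melanophages, from background to a rise of at least 14.8-fold (3.89 ± 0.28, adjusted p = 0.000323). It was the only call among 17 measured killer lectin-like and NK receptor genes, 13 of which were near background in both classes. Klrb1b differed by 2.25 ± 0.45 (adjusted p = 0.134) and Klri1 by 1.44 ± 0.31 (adjusted p = 0.179). Cytip, which binds the integrin regulator cytohesin, rose 6.33-fold (2.66 ± 0.39, adjusted p = 0.0204), from 3.64, 4.74 and 3.91 to 6.24, 6.97 and 7.07. Cd2, an adhesion molecule of T cells and some dendritic cells, rose at least 3.70-fold (1.89 ± 0.18, adjusted p = 0.00146). Cd226, an activating receptor, rose from background (1.48 ± 0.21, at least 2.79-fold, adjusted p = 0.0165). Cd52, a small surface protein of lymphocytes and myeloid cells, went from 7.70 ± 0.48 to 10.78 ± 0.20, an 8.45-fold rise (3.08 ± 0.27, adjusted p = 0.000859).

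Markers of whole lymphoid cells were measured beside these genes. Of 15 measured T cell and innate lymphoid cell genes, Cd2 and Cytip rose and 10 were near background in both classes, among them the T cell receptor chain Cd3e (3.23 ± 0.14 and 3.30 ± 0.16). The summed linear level of that list was between 492.5 and 583.2 in negative and between 835.4 and 918.4 in positive arrays, so the groups do not overlap. Most of this gap comes from the bright member Il7r, the interleukin-7 receptor, which was not called, and from Cytip and Cd2 themselves. Of 11 NK cell genes 0 were called and 10 were near background, among them the NK receptor Ncr1 (2.63 ± 0.25 and 2.58 ± 0.06). The member above background was the chemokine gene Ccl5, which was not called (1.56 ± 0.56, adjusted p = 0.693). The sum, in which Ccl5 weighs most, lay between 98.1 and 136.8 in negative and between 154.1 and 336.1 in positive arrays. The B cell, mast cell, eosinophil and neutrophil lists had 0 calls. The part of other cells in the rises of Klrd1, Cd2, Cytip, Cd226 and Cd52 was not tested. In bulk samples such as these, more cells of a type and more RNA per cell cannot be told apart.

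Monocyte genes moved in part. Of 19 measured members, Ccr2 and Ms4a4c rose and the other 17 were not called. At an unadjusted p under 0.05, 7 members were higher and 1 lower, against 533 and 603 of all 19938 genes. The list's sum was between 7272.5 and 8985.9 in negative and between 8524.0 and 9238.6 in positive arrays. Ms4a4c, a membrane protein of the MS4A family, rose 2.61-fold (1.38 ± 0.22, adjusted p = 0.0411). The integrin chain Itga4 (0.72 ± 0.13, adjusted p = 0.0975) and fibronectin, Fn1, near background in negative cells, missed the threshold, and Ifitm6 lay below 0 (-0.86 ± 0.27, adjusted p = 0.527). The gate's Ly6C is not analysed here at the RNA level. Further calls outside the list are known from myeloid cells: Adgre4 (1.22 ± 0.14, at least 2.34-fold, adjusted p = 0.00528), an adhesion receptor of the F4/80 family, and Mcemp1 (2.37 ± 0.38, at least 5.17-fold, adjusted p = 0.0441), a membrane protein of mast cells and monocytes.

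No member of the dendritic cell list was called, though Cd2, a call outside this list, is also known from some dendritic cells. Of 20 measured members 3 were higher and 0 lower at an unadjusted p under 0.05, against 533 and 603 of all 19938 genes. Arrays did not overlap for 4 members in the higher direction and 0 in the lower, against 5.12% and 7.13% of all genes. Ccr7, given above, was the member with the smallest p. Near background in both classes were 11 members, among them the dendritic cell factor Zbtb46 (3.32 ± 0.08 and 3.37 ± 0.12). The sum was between 1865.6 and 2085.2 in negative and between 1838.5 and 2585.1 in positive arrays. Itgax (CD11c) read 3.42, 3.29 and 3.52 against 4.06, 3.83 and 4.20 (0.62 ± 0.16, adjusted p = 0.334). Of 10 measured Langerhans cell genes, Il1r2 alone was called, and langerin, Cd207, was near background in both classes (2.81 ± 0.13 and 3.17 ± 0.22). For co-stimulation, none of the 19 genes was called, and the CD40 receptor gene Cd40 came closest (1.03 ± 0.20, adjusted p = 0.121). Of the 19 differences 16 lay above 0, with a median of 0.17, against -0.02 for all genes. The B7 ligand gene Cd86 read 8.46 ± 0.06 and 8.45 ± 0.31, and Cd80 differed by 0.39 ± 0.27.

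The remaining large rises fall into several roles. Plbd1, a lysosomal phospholipase B-like protein of myeloid cells, read 3.97, 4.41 and 5.15 in negative and 8.41, 8.88 and 8.92 in positive arrays, an 18.8-fold rise that was the largest after Ccl17 (4.23 ± 0.27, adjusted p = 0.000154). Mmp12, the macrophage elastase, read 4.51, 3.61 and 3.74 against 6.04, 6.81 and 6.49 (2.49 ± 0.31, 5.63-fold, adjusted p = 0.00959) and was the only call of 21 measured metalloproteinase and inhibitor genes. Ctsh, a lysosomal aminopeptidase, rose 2.78-fold (1.47 ± 0.22, adjusted p = 0.0231). It was the only call among 40 measured lysosomal genes, of which 8 had arrays that did not overlap in the lower direction and 1 in the higher. Over all genes these shares were 7.13% and 5.12%. The list's median was -0.07, against -0.02 for all genes. Ctsl, the cathepsin with the smallest p among those below 0, differed by -0.72 ± 0.18 (adjusted p = 0.299).

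The other called genes complete the 42 and were chosen for naming after their values were seen. Lsp1, an actin-binding protein of leukocytes, rose 4.09-fold (2.03 ± 0.26, adjusted p = 0.0115). Bcl2a1c, of a family of survival factors with near-identical copies, rose 3.73-fold (1.90 ± 0.23, adjusted p = 0.00878), and Pmaip1 (NOXA), a promoter of cell death, 2.18-fold (1.12 ± 0.18, adjusted p = 0.0384). Lyz1, a lysozyme whose probes may also take up its close copy Lyz2, reached 11.50 ± 0.15 (1.48 ± 0.22, 2.79-fold, adjusted p = 0.0226). Flrt3, a cell adhesion protein, rose 2.84-fold (1.51 ± 0.15, adjusted p = 0.00181). Serpinb2, a protease inhibitor of activated macrophages, rose from background (1.60 ± 0.18, at least 3.04-fold, adjusted p = 0.00479). Gfpt1, which opens the hexosamine path, rose 2.01-fold (1.01 ± 0.15, adjusted p = 0.0201) and Cyp4f18, a cytochrome P450 that inactivates leukotriene B, at least 1.68-fold (0.74 ± 0.10, adjusted p = 0.012).

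The 2 falls were small in number and not alike. Ednrb, the endothelin B receptor, read 8.24, 8.11 and 8.22 in MHC-II-negative and 6.35, 6.71 and 6.55 in positive melanophages. It was 3.14-fold lower in the positive class and lay just inside the threshold (-1.65 ± 0.27, adjusted p = 0.0489). Pdc, phosducin, a regulator of G proteins in the retina, fell from 3.72 ± 0.08 to 2.94 ± 0.09 (-0.78 ± 0.11, adjusted p = 0.0165), a range close to background where a fold is only a lower bound.

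Below the threshold, 13 genes that were at least 2-fold lower without overlap had the smallest p. Cnrip1, a cannabinoid receptor interacting protein, read 7.25, 7.66 and 7.09 against 5.83, 6.72 and 5.97 (-1.16 ± 0.21, adjusted p = 0.0831). Cd55, an inhibitor of complement, differed by -1.62 ± 0.35 (adjusted p = 0.166) and Slc40a1, the iron exporter ferroportin, by -1.34 ± 0.34 (adjusted p = 0.316), both reaching background in positive cells. Scrn3 (-1.07 ± 0.23, adjusted p = 0.181) was also near background in positive cells. The others were Dnm1 (-1.10 ± 0.23), B3galnt1 (-1.05 ± 0.23), Gja1 (-1.21 ± 0.28), Akr1b8 (-1.28 ± 0.30), the scavenger receptor Colec12 (-1.30 ± 0.31), Smagp, the stress factor Nupr1 (-1.07 ± 0.27), Gadd45a (-1.03 ± 0.28) and Plekhf1 (-1.37 ± 0.40). Their adjusted p lay between 0.168 for Dnm1 and 0.467 for Plekhf1.

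No member of the resident tissue macrophage list was called. Of 25 measured members, 20 differences were negative, and the median was -0.33 against -0.02 for all genes. At an unadjusted p under 0.05, 7 members were lower and 2 higher, against 603 and 533 of all 19938 genes. Arrays did not overlap for 7 members in the lower direction and 2 in the higher, against 7.13% and 5.12% of all genes. The hyaluronan receptor Lyve1 read 6.21, 7.14 and 6.95 against 4.64, 6.13 and 6.03 (-1.16 ± 0.49, adjusted p = 0.841). The folate receptor Folr2 differed by -0.55 ± 0.21 and the lectin Fcna by -0.66 ± 0.24, while the haemoglobin receptor Cd163 differed by -0.03 ± 0.24 and the mannose receptor Mrc1 by -0.01 ± 0.13. Timd4, a receptor for phosphatidylserine on dying cells that marks residents of other tissues, went the opposite way, from 3.46, 3.98 and 3.57 to 4.96, 7.38 and 6.87 (2.73 ± 0.54, adjusted p = 0.127). Positive replicate 1 lay far below replicates 2 and 3. The median of this list moved to -0.19 without that array.

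**Figure D3:**
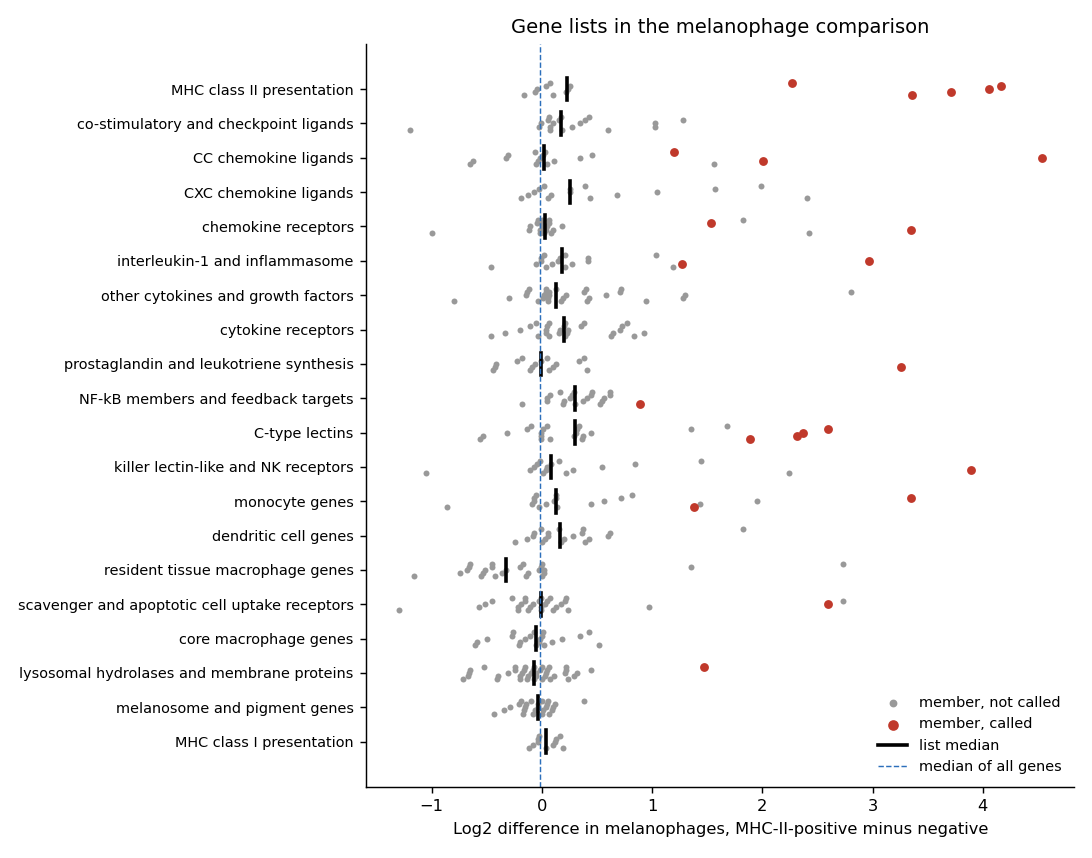
Log2 difference in melanophages (horizontal axis, MHC-II-positive minus MHC-II-negative) of the measured members of 20 gene lists, with called members in red, the list's median as a bar and the median of all genes (-0.02) as a dashed line. Called members lie to the right of 0 in every list that has any, and the median furthest to the left is that of resident tissue macrophage genes (-0.33).

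Functions tied to pigment load and housekeeping showed 0 calls each: iron handling (20 measured genes), NRF2 and glutathione (24), lipid-associated macrophage genes (17), cholesterol (22), autophagy (25), oxidative phosphorylation (29), glycolysis and hypoxia (24), cell cycle (30), interferon-stimulated genes (27), and immediate early and heat shock genes (26). With 0.211% of all genes called, 0 calls is near that share for lists of this size and says little about these functions. List medians ranged from -0.05 for iron handling to 0.19 for interferon-stimulated genes. Differences above 0 made up 27 of 30 for cell cycle, 21 of 27 for interferon-stimulated genes and 6 of 20 for iron handling. Markers of keratinocytes, hair follicle, fibroblasts, endothelium, pericytes, Schwann cells, muscle and fat had 0 calls as well. Over all 56 lists, 17 held at least 1 called gene.

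The same gates were compared in macrophages, where 68 genes were called (0.341%), 62 higher (0.311%) and 6 lower (0.0301%). The comparisons share no array, only the estimate of the spread. Of the 42 melanophage calls, 27 were also called in macrophages in the same direction, which is 64.3% of the melanophage calls and 39.7% of the macrophage calls, and all 42 had the same sign. The shared calls include Ccl17, Ccl22, Ccr2, Ptgs2, Il1b, Plbd1, Klrd1, Tnip3 and Pdc. A direct test of the difference between the cell kinds found no gene: with limma 0 were called (smallest adjusted p = 0.966), and 820 genes had an unadjusted p under 0.05 (4.11%). So no difference here can be called particular to melanophages.

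Values side by side still differed in size. Of the 42 genes, 29 had the larger difference in melanophages and 13 in macrophages, but they were chosen by their difference in melanophages, so this count is only a description. Cd52 differed by 3.08 ± 0.27 in melanophages and 1.82 ± 0.27 in macrophages, where negative cells already read 9.43, so the differences were 1.26 ± 0.38 apart. Ptgs2 differed by 3.26 ± 0.28 and 2.11 ± 0.28, and Cd2 by 1.89 ± 0.18 and 0.84 ± 0.18. For Serpinb2, which stayed near background in macrophages, the 2 differences were 1.33 ± 0.26 apart. In the other direction, Il1b differed by 1.27 ± 0.16 and 1.85 ± 0.16, and Ccl17 by 4.54 ± 0.56 and 5.97 ± 0.56. Timd4, not called in either, differed by 2.73 ± 0.54 in melanophages and -0.17 ± 0.54 in macrophages, where both classes already expressed it (6.64 and 6.47). None of these interactions passed the adjustment.

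**Figure D4:**
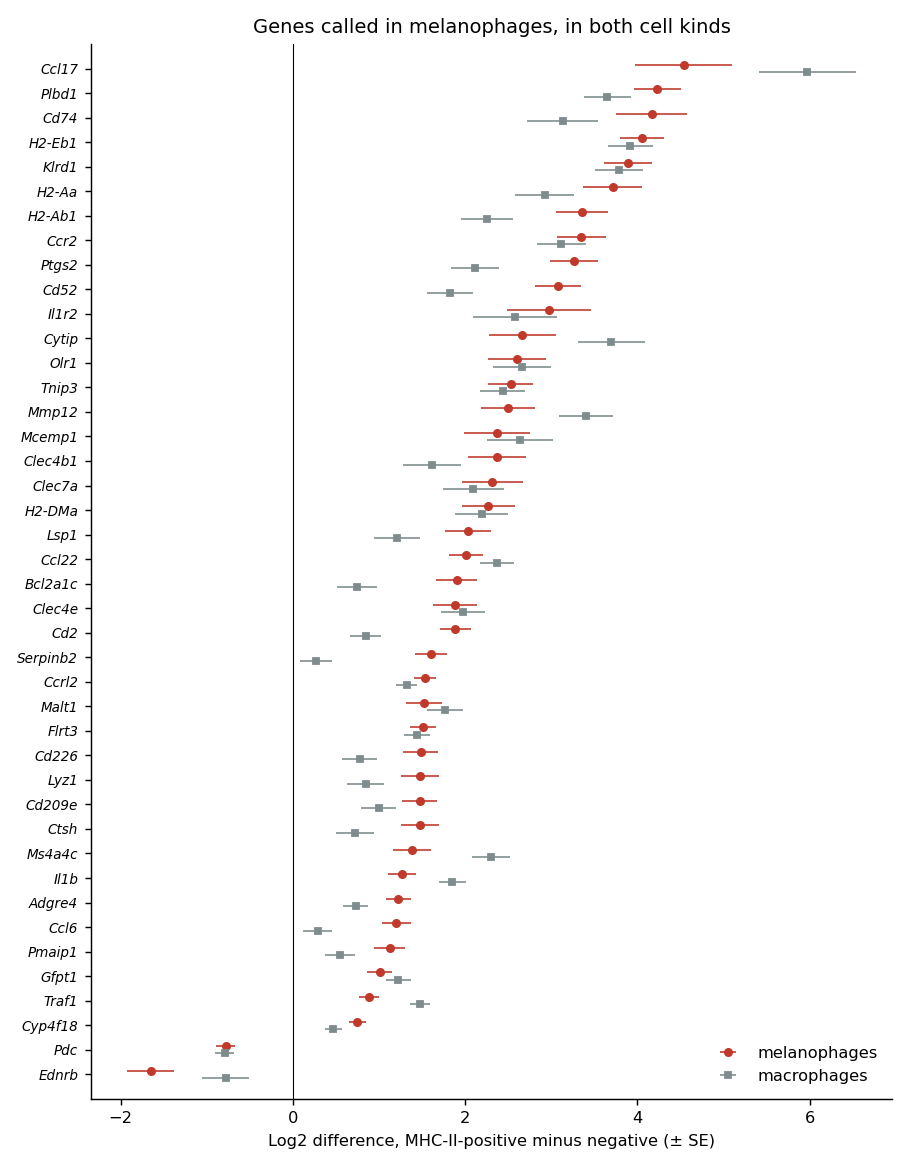
Log2 difference (MHC-II-positive minus MHC-II-negative, ± SE of the fit) of the 42 genes called in melanophages, in melanophages (red circles) and in macrophages (grey squares). Every gene has the same sign in both cell kinds, and 29 of the 42 lie further from 0 in melanophages.

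How firmly the calls stood depended on the arrays. In 24 alternative settings, 15 of the 42 genes were called every time: Adgre4, Ccl22, Ccr2, Ccrl2, Cd2, Cd52, Cd74, Flrt3, H2-Aa, H2-Ab1, H2-Eb1, Klrd1, Plbd1, Ptgs2 and Tnip3. Without MHC-II-positive melanophages replicate 2, the count of calls was 19 in place of 42. It was 24 when MHC-II-negative melanophages replicate 3 was left out. Ccl17 missed the threshold only without the latter array (adjusted p = 0.0566), and Il1b only without the former (adjusted p = 0.0554). Leaving out any 1 of the 6 melanophage arrays ended the calls of Ednrb (highest adjusted p over all settings 0.192), Lyz1 (0.125) and Mcemp1 (0.193). Il1r2 kept its call in 9 of the 24 settings, Ms4a4c in 10, and Mcemp1 and Pmaip1 in 12 each. Over the 6 settings that left out 1 melanophage array, Clec7a, Cd209e, Ccl6, Gfpt1 and Pdc also kept their call in only 1. Clec4b1, Clec4e, Cytip, Cd226, Malt1 and Ctsh kept it in 2 of these 6.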

How the data were processed

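Total RNA (3 to 20 ng) of sorted cells was amplified and biotin-labelled, per the protocols in the labels. The deposited values are log2 expression from RMA in the R package oligo, made by the authors per the submitters' processing notes; no source used here gives versions, settings or filters. RMA equalises the arrays, so a shift shared by most genes would not show. The table has 35556 probe sets; 21789 carry 1 gene symbol, 1621 several and 12146 none here. Each of 19938 genes was represented by its brightest probe set (mean of 12 arrays). All 12 arrays were fitted with limma 3.58.1 (R 4.3.3; lmFit, eBayes; a mean per group; 8 residual and 2.44 prior degrees of freedom), two-sided, with no filter on dim genes. Replicate numbers follow the order of the samples in the labels, which state no pairing. They coincide with the runs of title codes described below.

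The members and lists were chosen with earlier results of these data known. Named genes were the 15 largest rises and falls among calls without overlap (falls filled up to 15 by smallest p among at least 2-fold differences), every sort marker, and up to 4 called members of each of 56 lists (1061 of 1145 entries measured), or the member with the smallest adjusted p; members of the lists on chemokines, interleukin-1, prostaglandins, co-stimulation, MHC-II, dendritic cells and resident macrophages could be described further. Other named genes were chosen after their values were seen. In simulated data for this comparison with 19938 genes, changes were placed only in genes brighter than the median gene. The noise was normal and independent between arrays. There the fit recovered 57% of 2-fold changes (log2 of 1) and 93% of changes of 2 on the log2 scale, with 6 false calls. For the interaction it recovered 32% and 77%, with 10 false calls. Promoter sequences are RefSeq's (GRCm38.p6); 3 of 4 genes looked up were listed, and H2-Ab1 was not. Alternatives were dim-gene filters, normalization, prior, array weights, probe set choice, the melanophage arrays alone and each array left out. The number of arrays limits the precision.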

Additional observations from a re-analysis of the deposited data

How the results depend on the processing

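The count of 42 calls between the melanophage classes kept to within 1.5 times of itself (30 to 63) in all settings but the 2 named here; leaving out 1 array gave 19 to 46, with 19 in the absence of MHC-II-positive melanophages replicate 2 and 24 in that of MHC-II-negative melanophages replicate 3. With the 6 melanophage arrays alone 35 genes were called, 26 of them among the 42. In macrophages the count was 68 and ranged from 47 to 92 with 1 array left out; it was 27 with the macrophage arrays alone, a fit with fewer samples. For the interaction the count was 0 and ranged from 0 to 3 with 1 array left out: Hamp without MHC-II-positive macrophages replicate 1 (1 call), and Ift52, Cd207 and Isy1 without MHC-II-positive macrophages replicate 2 (3 calls); the cause was not tested. Leaving out both macrophage arrays farthest from their group mates, a setting chosen after seeing the data, gave 54, 87 and 0. For 93 single genes followed over these settings, 2209 gene values in all, 160 values lost a call, 32 gained one and 0 reversed. The titles carry serial codes in 3 runs, each with 1 array of every group, which no label explains; with the run as a replicate block, also chosen after seeing the data, 39 genes were called in melanophages (32 of the 42), 69 in macrophages and 0 for the interaction, and Timd4 gained a call, just inside the threshold. Deviations from the group means correlated above 0.1 in 5 of 18 pairs of the same run (-0.248 to 0.27), and 5 of 12 arrays correlated best with their own run. With so few arrays this cannot settle whether the runs pair the samples, and the main fit has no block. Signal near background limits 12 of the 42 differences to lower bounds.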

Other observations

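Some genes not described above lay well apart between the melanophage classes without passing limma's adjustment, and were chosen after their values were seen. The metabolic enzyme gene Acod1, which makes itaconate in activated macrophages, read 3.34, 3.59 and 3.46 in MHC-II-negative and 4.36, 4.98 and 4.42 in MHC-II-positive cells (1.12 ± 0.20, adjusted p = 0.0831). The adhesion receptor Adgre5 differed by 1.81 ± 0.32 (adjusted p = 0.0807). Among transcription factors, where 0 of 33 measured genes were called, the aryl hydrocarbon receptor Ahr differed by 0.93 ± 0.19 (adjusted p = 0.127) and the orphan receptor Nr4a3 by 1.47 ± 0.38 (adjusted p = 0.327). Retnla, which alternatively activated macrophages secrete, read 8.28, 8.88 and 7.68 against 9.69, 9.85 and 9.49 (1.40 ± 0.28, adjusted p = 0.127), while in macrophages it stood at 11.46 and 11.48 in the MHC-II-negative and MHC-II-positive means. The endotoxin receptor Tlr4 lay lower in all 3 positive arrays (7.58 ± 0.14 and 6.98 ± 0.16, adjusted p = 0.204).

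Il7r, the interleukin-7 receptor, was at 7.85 ± 0.28 and 8.78 ± 0.11 in the melanophage classes (0.93 ± 0.35), whereas in macrophages it differed by 2.95 ± 0.35. The glucose transporter Slc2a1 differed by 0.73 ± 0.15 in melanophages and 1.77 ± 0.15 in macrophages, and Itgax by 0.62 ± 0.16 and 1.91 ± 0.16. In limma's test of the difference between the cell kinds no gene passed the adjustment (smallest adjusted p = 0.966).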
